A study of Mus musculus with 8 samples.

Results

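The E2F transcription factors were followed in mouse uterus shortly before embryo attachment. The family has 8 genes, E2f1 to E2f8, and was chosen because E2f8 was among the named genes with the largest increases in an earlier examination of these same arrays. All 8 were found by their gene symbol, on 9 probe sets (sets of short probes that together measure 1 transcript), out of 19938 genes that had a probe set with a single symbol. E2f3 had a pair of probe sets, and the brighter one was used. All 9 probe sets passed the filter on dim signals, as did probe sets of 13038 of the 19938 genes. Total RNA from whole uterus of young virgin C57BL/6 females was hybridised to 8 arrays. The 4 pregnant samples came from females mated with stud males and the 4 pseudopregnant samples from females mated with vasectomized males. Both sets were taken on day 3 at hour 22, counted from the mating night as day 0. Pregnant uteri were used only where no blue dye reaction (a vascular sign of attachment) was yet seen and healthy blastocysts had been flushed out. The samples with the best RNA quality were picked for the arrays. The labels call each sample a biological replicate and do not say whether it is 1 animal or a pool. The presence of embryos and the kind of male cannot be told apart in this design, since both differ between the groups.

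E2F proteins bind the promoters of genes needed for DNA replication and cell division. E2f1, E2f2 and E2f3 activate them, E2f4 and E2f5 mainly repress them together with pocket proteins of the retinoblastoma family, and E2f6 represses them with Polycomb group proteins. E2f7 and E2f8 are the atypical members: they bind DNA without a dimer partner, do not bind pocket proteins, and repress G1/S genes late in the cell cycle. In mice the atypical pair is needed for normal placental development and takes part in the polyploidy of liver and trophoblast cells, and E2f8 has been linked to the polyploidy of decidual cells, which form from uterine stroma after attachment.

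E2F genes can themselves carry E2F sites, so the promoter windows of the family were read for them. RefSeq windows on build GRCm38.p6, from 250 bases before to 50 bases after a transcript start, were found for 6 of the 8 genes, and for E2f4 and E2f5 none was used here. Windows were searched on both strands for 4 words of the E2F consensus: the word TTCCCGC, the word TTCGCGC, the word TTGCCGC and the word TTGGCGC. No matches in the family overlapped each other. The windows of the 4 genes that held a word are printed 5′ to 3′ on the gene's strand, because they show where each word lies, with the words in capitals. The E2f8 window is chr7:48881547-48881846 on the minus strand, that of E2f7 chr10:110745189-110745488 on the plus strand, that of E2f3 chr13:29986014-29986313 on the minus strand, and that of E2f2 chr4:136172024-136172323 on the plus strand.
E2f8: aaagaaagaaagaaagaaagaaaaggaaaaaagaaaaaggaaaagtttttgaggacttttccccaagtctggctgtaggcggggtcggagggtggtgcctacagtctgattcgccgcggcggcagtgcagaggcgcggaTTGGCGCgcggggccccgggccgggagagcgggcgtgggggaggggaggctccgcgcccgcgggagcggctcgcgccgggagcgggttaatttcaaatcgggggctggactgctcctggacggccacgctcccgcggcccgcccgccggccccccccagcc
E2f7: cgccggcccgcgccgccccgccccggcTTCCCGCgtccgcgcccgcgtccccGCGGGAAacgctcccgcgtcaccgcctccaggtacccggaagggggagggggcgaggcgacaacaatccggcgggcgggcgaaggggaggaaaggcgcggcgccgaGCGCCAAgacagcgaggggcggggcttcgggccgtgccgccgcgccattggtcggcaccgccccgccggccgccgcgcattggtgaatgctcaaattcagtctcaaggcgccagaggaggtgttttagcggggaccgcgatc
E2f3: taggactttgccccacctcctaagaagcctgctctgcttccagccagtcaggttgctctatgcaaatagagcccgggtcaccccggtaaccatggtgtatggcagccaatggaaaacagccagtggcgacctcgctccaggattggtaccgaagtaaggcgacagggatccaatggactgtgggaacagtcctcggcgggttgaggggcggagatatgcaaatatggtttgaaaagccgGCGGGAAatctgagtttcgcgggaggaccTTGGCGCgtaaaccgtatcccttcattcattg
E2f2: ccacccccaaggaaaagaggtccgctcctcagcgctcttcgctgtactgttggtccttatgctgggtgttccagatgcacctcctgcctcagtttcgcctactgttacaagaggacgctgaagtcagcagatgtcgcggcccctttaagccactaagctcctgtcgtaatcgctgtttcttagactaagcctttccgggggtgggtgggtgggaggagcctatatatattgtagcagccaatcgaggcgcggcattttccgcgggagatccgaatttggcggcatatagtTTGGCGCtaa
E2f8 held 1 word, TTGGCGC, with its middle at position -108 from the transcript start. E2f7 held 3 words, a TTCCCGC on each strand and a TTGGCGC read on the opposite strand. E2f3 held 2 words, one on each side of its start, and E2f2 held 1 word after its start. The windows of E2f1 and E2f6, and the second windows of E2f2 and E2f3, held none of the 4 words. The E2f8 window starts from a transcript start that lies 477 bases inside the outermost start of the gene, and that of E2f1 from one 466 bases inside, so other start sites of these genes were not covered. By gene, 4 of 6 family members had a word, against 10.9% of the 27025 genes with a window. By window, 9.57% of all 32851 windows held one. Such a match is only a run of letters and does not show that a factor binds there.

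Array medians lay between 55.2 and 56.3 intensity units, and arrays of the same group correlated at 0.984 to 0.994 over the kept probe sets. Pregnant replicate 2 stood apart on the first principal component, which held 46.1% of the variance, with a score of -26.7. Pregnant replicates 1, 3 and 4 had scores of -6.6 to -4.9. In the pseudopregnant group, replicate 1 stood apart too, at 20.3, and the other arrays had scores of 6.8 to 9.3. The differences of all members and their likeness to E2f8 are given with and without pregnant replicate 2. For E2f6 and E2f8, the difference without pseudopregnant replicate 1 is given too. The uterine genes Pgr, Esr1, Hoxa10, Hoxa11 and Wnt7a passed the filter, and limma called 0 of 5 different, with 0 at an unadjusted p under 0.05. None of 5 blastocyst markers and none of the 3 ovary and oviduct markers on the array passed the filter. In whole tissue, fewer cells of a type and less RNA per cell cannot be told apart. All levels below are log2 of the deposited intensity, differences are pregnant minus pseudopregnant with the standard error (SE) of the limma fit, and levels of different probe sets are not set against each other. The array contrast chose the family, so its differences are a description and carry no test.

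Among the 8 members, E2f8 had the largest difference, followed by E2f1, E2f3 and E2f6, while E2f2, E2f4 and E2f5 lay close to 0. The difference was above 0 for 6 members and below 0 for 2, with a median of 0.19, against 0.0019 over all 17491 kept probe sets. Groups did not overlap for 2 members, E2f1 and E2f8, both with pregnant above. Over all kept probe sets, 14.6% did not overlap, 9.23% with pregnant above and 5.39% with pregnant below. limma's adjusted p lay under 0.05 for E2f8 alone, 1 of 8, against 1.82% of kept probe sets (1.41% higher and 0.412% lower). Because E2f8 was picked by this contrast, nothing is read from that count.

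**Figure D1:**
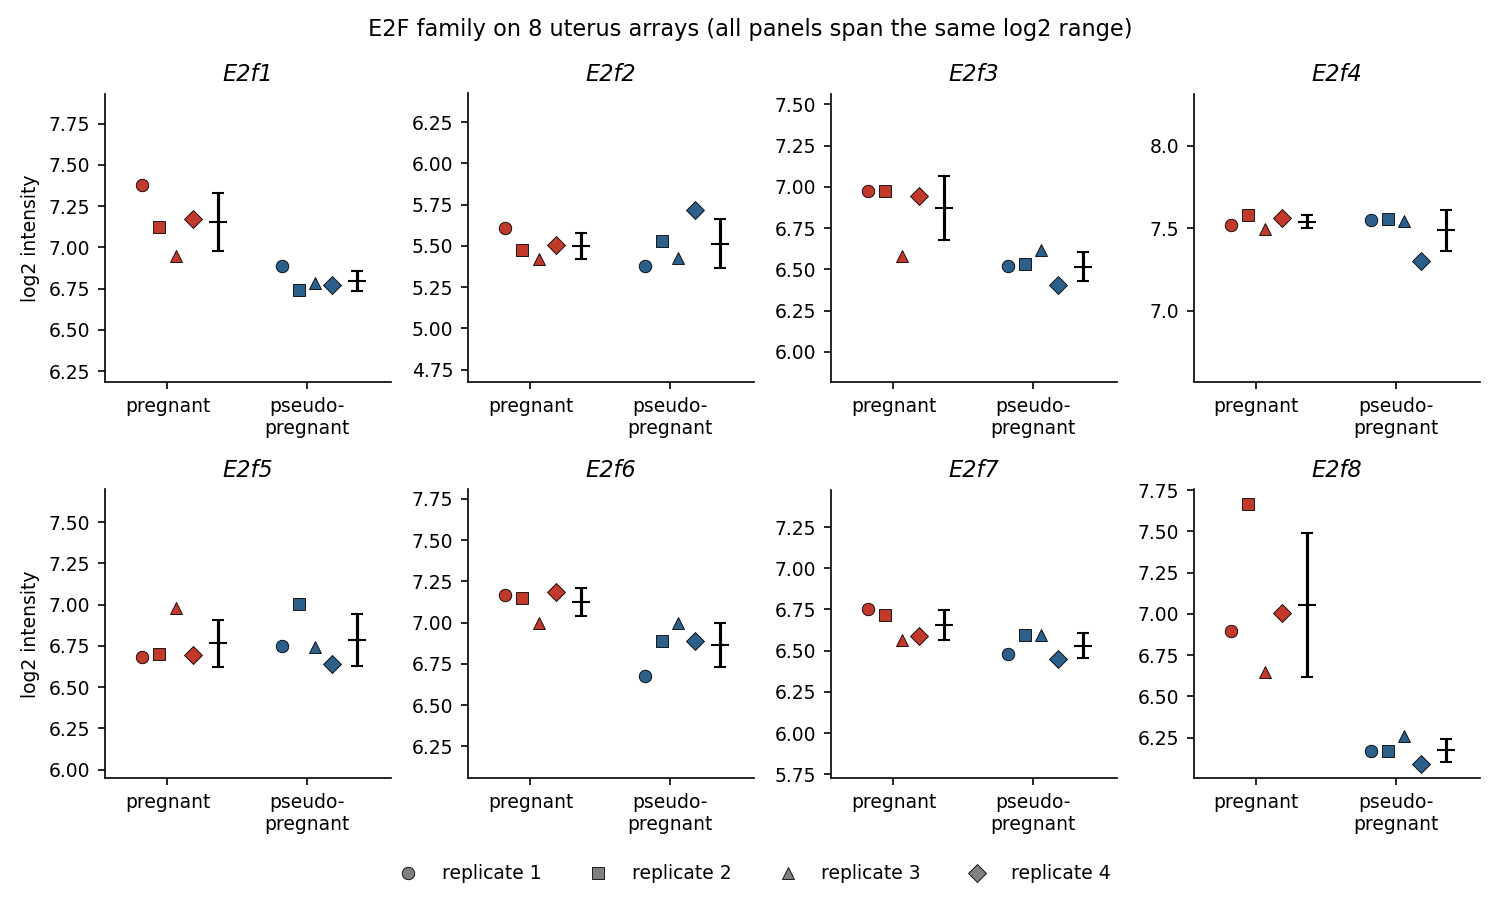
log2 intensity of each E2F family member on each of the 8 arrays, pregnant left and pseudopregnant right, with the group mean ± SD beside them. Points are single arrays. The groups of E2f1 and E2f8 do not overlap, and those of the other 6 genes do.

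Of the activators, E2f1, which drives entry into S phase and can also induce apoptosis, was 1.28-fold higher in pregnant uterus. Its levels were 7.37, 7.12, 6.95 and 7.17 in pregnant replicates 1 to 4, against 6.89, 6.74, 6.79 and 6.77 in pseudopregnant replicates 1 to 4. Every pregnant array lay above every pseudopregnant one, though pregnant replicate 3 cleared pseudopregnant replicate 1 by only 0.064. The means were 7.15 ± 0.17 in pregnant and 6.80 ± 0.063 in pseudopregnant uterus (SD, n = 4 each), a difference of 0.36 ± 0.084. It was 0.37 without pregnant replicate 2.

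E2f3, the activator needed for the proliferation of many cell types, showed a difference of similar size but with overlap. Levels were 6.98, 6.97, 6.58 and 6.95 in pregnant replicates 1 to 4, against 6.52, 6.53, 6.62 and 6.41 in pseudopregnant replicates 1 to 4. Pregnant replicate 3 lay among the pseudopregnant arrays, and the other 3 pregnant arrays lay well above them. The means, 6.87 ± 0.19 in pregnant and 6.52 ± 0.086 in pseudopregnant uterus (SD, n = 4 each), differed by 0.35 ± 0.093, or 1.28-fold, and by 0.32 without pregnant replicate 2. The dimmer E2f3 probe set gave 0.19 ± 0.084 and also overlapped between groups. E2f2, the activator best known from blood cells, was near the filter's limit, the 40th percentile of each array (5.23 to 5.32). It read 5.61, 5.47, 5.42 and 5.50 in pregnant replicates 1 to 4, against 5.38, 5.53, 5.43 and 5.72 in pseudopregnant replicates 1 to 4. The groups were intermingled and the difference was -0.01 ± 0.079, or -0.0038 without pregnant replicate 2, with either sign when single arrays were left out.

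The repressors that act with pocket proteins showed differences no larger than their SE. E2f4, the main E2F of resting cells, had levels of 7.52, 7.58, 7.50 and 7.56 in pregnant replicates 1 to 4, against 7.55, 7.56, 7.54 and 7.30 in pseudopregnant replicates 1 to 4. The arrays lay within a narrow range apart from pseudopregnant replicate 4, which was the lowest. The difference was 0.05 ± 0.066, or 0.04 without pregnant replicate 2, and -0.0098 at its lowest when single arrays were left out. E2f5, its closest relative, had levels of 6.68, 6.70, 6.98 and 6.70 in pregnant replicates 1 to 4, against 6.75, 7.01, 6.75 and 6.64 in pseudopregnant replicates 1 to 4. One array in each group, pregnant replicate 3 and pseudopregnant replicate 2, lay above the rest. The difference of -0.02 ± 0.093 took either sign when single arrays were left out, between -0.093 and 0.052, and was 0.00078 without pregnant replicate 2.

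E2f6, the repressor found in a variant Polycomb complex, lay between the activators and E2f7 in the size of its difference. Its levels were 7.17, 7.15, 6.998 and 7.19 in pregnant replicates 1 to 4, against 6.68, 6.89, 6.999 and 6.89 in pseudopregnant replicates 1 to 4. Only replicate 3 of each group met, at almost the same level. The means of 7.13 ± 0.087 in pregnant and 6.86 ± 0.13 in pseudopregnant uterus (SD, n = 4 each) differed by 0.26 ± 0.076, or 1.20-fold, and by 0.25 without pregnant replicate 2. Without pseudopregnant replicate 1, the lowest array, the difference was 0.20.

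E2f8 differed most within the family. Its levels were 6.90, 7.67, 6.65 and 7.003 in pregnant replicates 1 to 4, against 6.17, 6.17, 6.26 and 6.09 in pseudopregnant replicates 1 to 4. All pregnant arrays lay above all pseudopregnant ones, with a gap of 0.39 between the nearest arrays. The pseudopregnant arrays were close together and the pregnant ones spread widely, with replicate 2 the highest and replicate 3 the lowest. The means were 7.05 ± 0.44 in pregnant and 6.17 ± 0.071 in pseudopregnant uterus (SD, n = 4 each). The difference was 0.88 ± 0.18, or 1.84-fold, and 2.46 times the next largest of the family. Without pregnant replicate 2 it was 0.68 ± 0.086, and without pseudopregnant replicate 1 it was 0.88 ± 0.20. With all 8 arrays, the difference stood at the 99.9th percentile of the differences of all kept probe sets. E2f8 was picked for a large increase in this contrast, so nothing is read from that place.

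The other atypical member, E2f7, which can stand in for E2f8 in mouse development, differed far less. Its levels were 6.75, 6.72, 6.57 and 6.59 in pregnant replicates 1 to 4, against 6.48, 6.60, 6.59 and 6.45 in pseudopregnant replicates 1 to 4. Pregnant replicates 1 and 2 lay above all pseudopregnant arrays, and replicates 3 and 4 lay among them. The means, 6.66 ± 0.092 in pregnant and 6.53 ± 0.077 in pseudopregnant uterus (SD, n = 4 each), differed by 0.13 ± 0.063, or 1.09-fold, and by 0.11 without pregnant replicate 2. Its promoter window, printed above, held 3 E2F words, against 1 in that of E2f8. The E2f7 window is at the outermost start of its gene and the E2f8 window at one 477 bases inside. The counts are thus not compared.

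**Figure D2:**
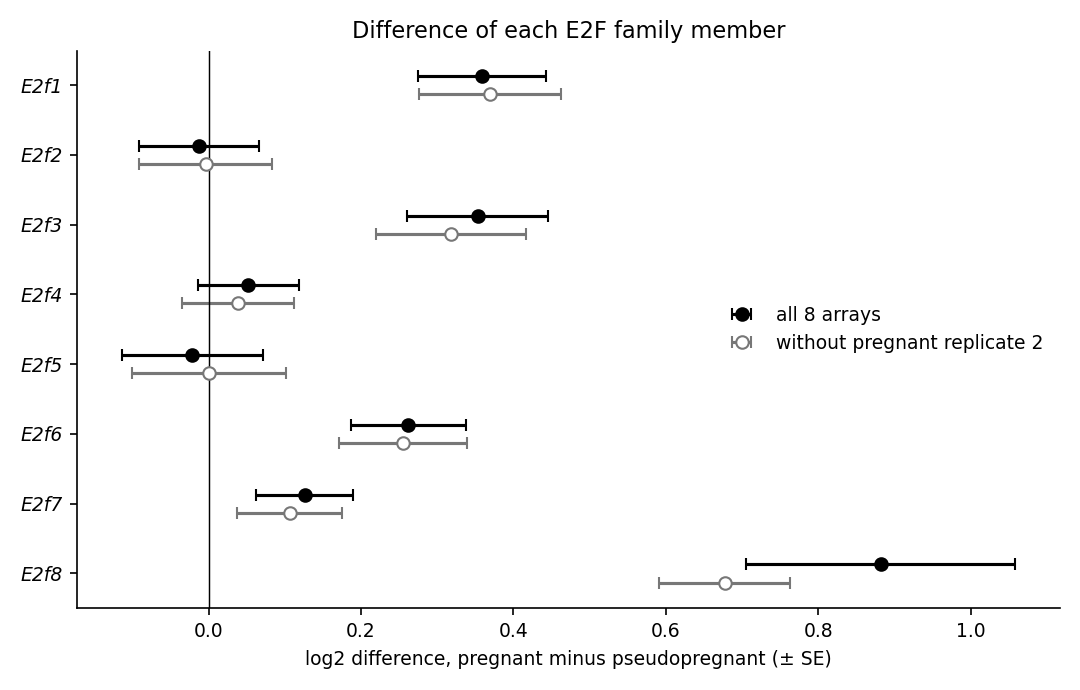
log2 difference, pregnant minus pseudopregnant, for each E2F family member with its SE from limma. Filled points use all 8 arrays and open points leave out pregnant replicate 2. E2f8 lies at 0.88 and, without that array, at 0.68, still to the right of E2f1, E2f3 and E2f6, and E2f2, E2f4 and E2f5 sit near 0.

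Across members, the same arrays tended to be at the ends. Pregnant replicate 3 was the lowest pregnant array for 7 of 8 members, and for E2f5 it was the highest instead. Pregnant replicate 1 was the highest pregnant array for E2f1, E2f2, E2f3 and E2f7, replicate 2 for E2f4 and E2f8, and replicate 4 for E2f6. Pseudopregnant replicate 4 was the lowest of its group for 5 members, E2f3, E2f4, E2f5, E2f7 and E2f8. Members on an array share its RNA and hybridisation, so these counts are not independent.

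The genes whose arrays ran most like E2f8 were ranked by the root mean square difference of log2 levels, each gene centred on its own mean over the 8 arrays, among 13037 other kept genes. The first was Klra8, an activating NK cell receptor, at 0.117. Next came Cthrc1, Alpl, Tfrc (the transferrin receptor), Sgo1 (a protector of chromosome cohesion), Cwh43, Sfrp1 (a Wnt antagonist), Ncr1 (an NK cell receptor), Tmem97 and Mybl1, with values up to 0.190. Since these 10 were picked for following E2f8 over the same arrays, they carry no test between the groups. All 10 had their highest level on pregnant replicate 2, as E2f8 did. The nearest family member was E2f3, at rank 306, ahead of E2f1 at 606, E2f6 at 819 and E2f7 at 1954. E2f4, E2f2 and E2f5 followed at 3526, 7496 and 9403. Without pregnant replicate 2 the ranks were 83 for E2f3, 84 for E2f1, 323 for E2f6 and 2248 for E2f7, and 4304, 8011 and 9904 for E2f4, E2f2 and E2f5. The levels were centred but not scaled, so a member's rank depends on the size of its own difference between the groups. The ranks of members are thus a description and add no test to the differences above.

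The lists around the family were tested in the same limma fit, with p-values adjusted over all 17491 probe sets. Of the pocket proteins and dimer partners, 0 of 5 passed, with 2 at an unadjusted p under 0.05 (23.7% of kept probe sets reached it, 14.3% higher and 9.43% lower), and their median difference was 0.08. Rbl1, the pocket protein p107 that binds E2f4 and E2f5, gave 0.30 ± 0.083 (limma adjusted p = 0.079). It had 7.34, 7.26, 6.97 and 7.25 in pregnant replicates 1 to 4, against 6.87, 6.93, 7.02 and 6.81 in pseudopregnant replicates 1 to 4, so that only pregnant replicate 3 lay among the pseudopregnant arrays. The dimer partner Tfdp1 gave 0.19 ± 0.083, and Tfdp2, Rb1 and Rbl2 gave 0.02, 0.08 and -0.09.

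E2F target genes of the G1/S transition encode replication factors, enzymes of nucleotide synthesis and cyclin E, and E2f7 and E2f8 repress them. Whether or not they passed the filter, all 34 listed genes on the array had a difference above 0, against 50.6% of kept probe sets. Their median was 0.39, against 0.0019 for all kept probe sets. Pregnant arrays lay above all pseudopregnant ones for 14 of 34, against 9.23% of kept probe sets. The filter kept 32 of the 34 genes. Clspn, named here after its values were seen, passed only through the 4 pregnant arrays, and Ccne2 through the 4 pregnant arrays and 1 pseudopregnant array. Both were kept by the group in which they were high, so their tests are not independent of the filter. limma called 4 of 32 higher and 0 lower, against 1.41% and 0.412% of kept probe sets. An unadjusted p under 0.05 was reached by 29, all of them higher, against 14.3% of kept probe sets. The list was written with earlier results of these data known. Its genes share the same arrays, so they are not independent, and these counts are no test of the list. The 4 called were Mcm10, a replication factor, at 0.48 ± 0.079 (adjusted p = 0.026), Pcna, the sliding clamp, at 0.55 ± 0.094 (adjusted p = 0.028), Pola1, the polymerase alpha subunit, at 0.40 ± 0.082 (adjusted p = 0.045), and Ccne2, cyclin E2, at 0.77 ± 0.16 (adjusted p = 0.045). With the filter that asked for all 8 arrays, which drops Ccne2, 3 of the list were called. Pregnant replicate 3, the lowest pregnant array for 7 E2F members, had 13 of the 32 genes above all pseudopregnant arrays, against 32, 30 and 30 for replicates 1, 2 and 4. The calls depended on single arrays. None of these 4 genes was called when pregnant replicate 1, 2 or 4 was left out, and none when pseudopregnant replicate 1 or 3 was. Leaving out pseudopregnant replicate 2 left 1 of them called, and leaving out pseudopregnant replicate 4 left 2. Leaving out pregnant replicate 3 kept all 4, among 14 called in the list. In RefSeq windows, 20 of 29 G1/S genes held at least 1 of the 4 E2F words, against 10.9% of all genes with a window. The list was written as E2F targets, so nothing is read from that share.

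Genes of G2/M, which act in mitosis and are held down by E2f4 with pocket proteins in the DREAM complex, had a median of 0.33. Of 19 that passed the filter, all had a difference above 0, against 50.6% of kept probe sets. Pregnant arrays lay above all pseudopregnant ones for 1 of 19, Bub1, against 9.23% of kept probe sets. limma called 0, and 4 of 19 had an unadjusted p under 0.05, all higher, against 14.3% of kept probe sets. They were Bub1 (0.54), Birc5 (0.32), Top2a (0.39) and Kif11 (0.46). Pregnant replicate 2 was the highest pregnant array for 19 of 19, as it was for E2f8. Without it the median was 0.10, with 15 of 19 above 0. The list mean was 6.83 to 6.93 on pregnant replicates 1, 3 and 4, within the 6.65 to 6.94 of the pseudopregnant arrays. Of the 16 G2/M genes with a promoter window, 3 held an E2F word, against 10.9% of all genes with a window.

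**Figure D3:**
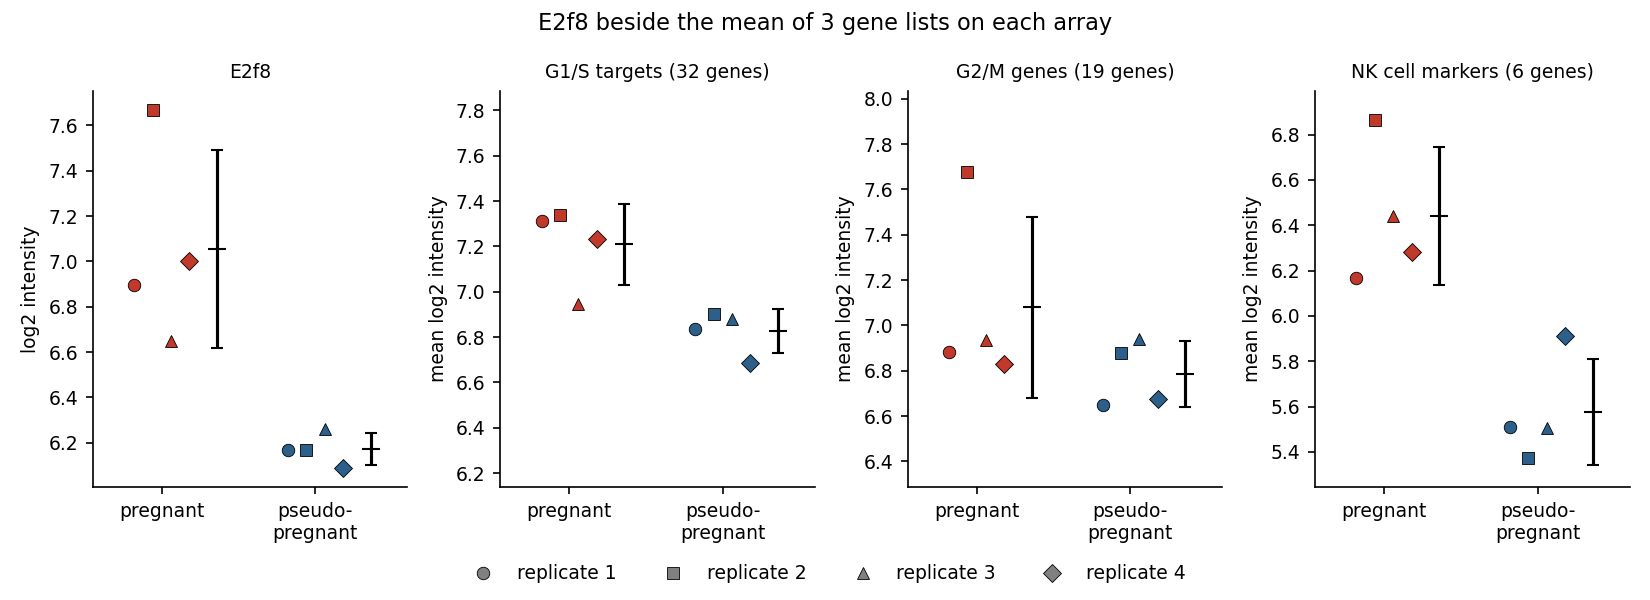
log2 intensity of E2f8 and the mean log2 intensity of 3 gene lists on each array, pregnant left and pseudopregnant right, with the group mean ± SD; all panels span the same number of log2 units. Pregnant replicate 2 is highest in all 4 panels, by little in the G1/S list (7.34, against 7.31 for replicate 1) and by most in the G2/M list (7.67, against 6.93 for replicate 3).

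G1 cyclins, their kinases and inhibitors act upstream of the family and had a median difference of 0.12. Each of the 14 kept was read from its brightest probe set. At an unadjusted p under 0.05, 5 were higher and 0 lower, against 14.3% and 9.43% of kept probe sets. limma called 2 higher and 0 lower, against 1.41% and 0.412%. One was Ccne2, with the limit given above, and the other was Cdk2, the kinase that phosphorylates pocket proteins and so frees E2F, at 0.28 ± 0.059 (limma adjusted p = 0.049). Cdk2 levels were 7.21, 7.27, 7.07 and 7.22 in pregnant replicates 1 to 4, against 6.85, 6.98, 6.89 and 6.94 in pseudopregnant replicates 1 to 4, without overlap. Ccne1 (0.48, adjusted p = 0.096) and Ccnd1 (0.23, adjusted p = 0.13) did not pass. The probe sets of the inhibitor Cdkn1b differed in sign. The brightest gave 0.13 ± 0.080, and a dimmer one gave -0.46 ± 0.16 (limma unadjusted p = 0.018, adjusted p = 0.13). On the dimmer one, all pregnant arrays lay below all pseudopregnant ones. Of the 8 arrays left out in turn, Cdk2 stayed called only without pregnant replicate 3. It was also lost with no filter, with arrays centred on their medians, with a replicate block and with the mean of a gene's probe sets (adjusted p = 0.091, 0.051, 0.067 and 0.052). Among ubiquitin ligase parts that degrade E2F proteins, 0 of 6 passed, with a median of -0.0044 and 1 at an unadjusted p under 0.05, Skp2, which targets E2f1, at 0.32 ± 0.093. Rbx1 gave -0.02 on its brightest probe set. A dimmer Rbx1 probe set gave -0.25 ± 0.061 (limma adjusted p = 0.060), with pregnant below on every array.

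No partner of a single member passed. Of the MuvB core, which joins E2f4 and a pocket protein in the DREAM complex, 0 of 4 kept genes were called, with 1 at an unadjusted p under 0.05 and a median of 0.09. Lin54 gave 0.28, Rbbp4 0.15 and Lin37 -0.14. Foxm1, listed with the core because it binds MuvB after E2f4 has left, gave 0.21 and was not called. Of 10 partners of E2f6 in its Polycomb complex, 0 were called, 4 had an unadjusted p under 0.05 and 9 lay above 0, with a median of 0.13. Over all kept probe sets, 23.7% reached that p (14.3% higher and 9.43% lower), and 50.6% lay above 0. Wdr5 gave 0.20, Yaf2 0.21, Cbx3 0.20 and Pcgf6 0.16. Cbx3 had 7 probe sets, and only the brightest was read. Of the germline genes known to be repressed through E2f6, Stag3, Smc1b and Slc25a31 were too dim to be kept, and Tuba3a, at 0.0096, did not pass.

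No gene was called in the target lists outside the cell cycle. Of the apoptosis genes induced by E2f1, 0 of 3 kept genes were called or had an unadjusted p under 0.05: Apaf1 gave 0.10, Bcl2l11 0.08 and Pmaip1 -0.12. The vascular genes bound by E2F7 and E2F8 in human cells or zebrafish gave a median of 0.030, with 0 of 4 called and 0 at an unadjusted p under 0.05. Vegfa gave -0.0042, Nrp1 0.09, Flt4 -0.11 and Ccbe1 0.06. In the multiciliated cell programme that runs through E2f4 and E2f5, 2 of 7 genes were bright enough to test, Mcidas (-0.14) and Myb (0.0065), and neither was called or had an unadjusted p under 0.05.

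**Figure D4:**
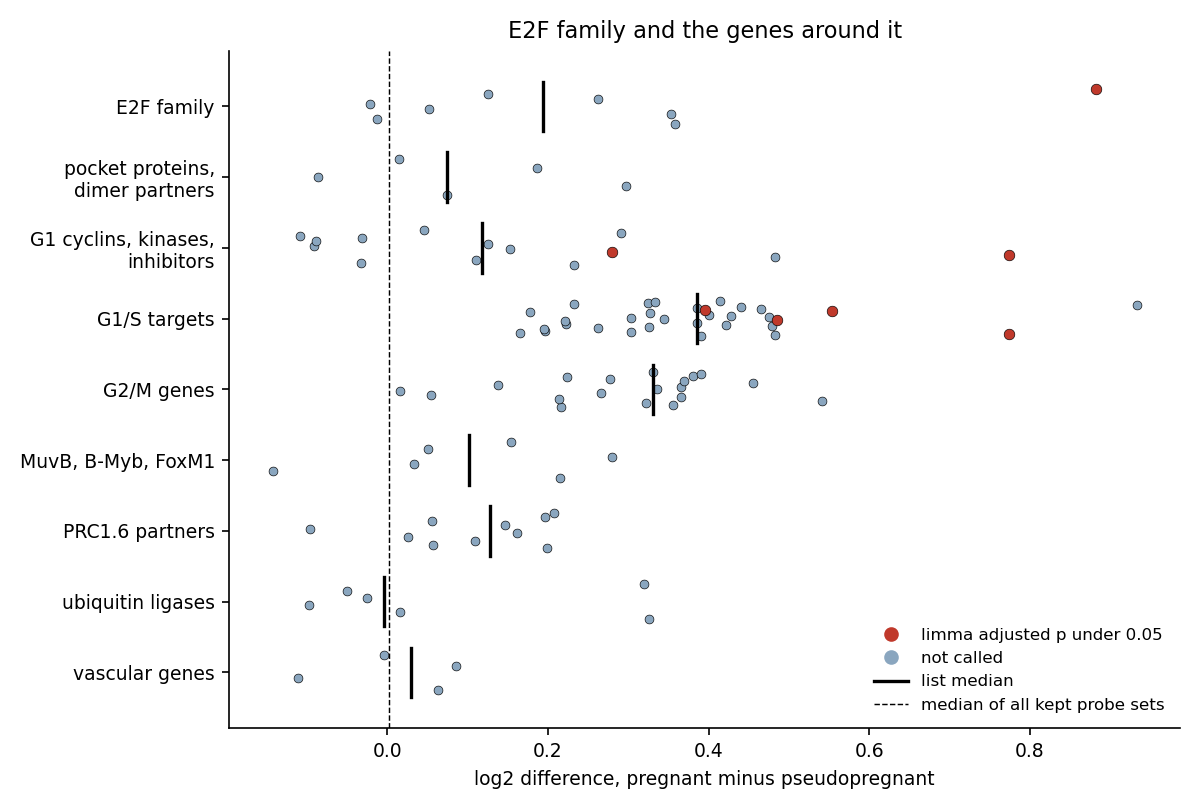
log2 difference, pregnant minus pseudopregnant, for each gene of the E2F family and of 8 lists around it; each point is a gene, dark points have a limma adjusted p under 0.05, black bars are list medians and the dashed line is the median of all kept probe sets. The family lies at a median of 0.19, G1/S targets at 0.39 and pocket proteins with dimer partners at 0.08.

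Markers of NK cells and macrophages were also higher in pregnant uterus. The mean level of 6 NK cell markers was 6.17, 6.86, 6.44 and 6.28 in pregnant replicates 1 to 4, against 5.51, 5.37, 5.51 and 5.91 in pseudopregnant replicates 1 to 4. It was highest on pregnant replicate 2, as E2f8 was, the array that stood apart on the first principal component. The other pregnant arrays differed in order: replicate 1 was the lowest for the NK mean and replicate 3 for E2f8. Of the 6, Eomes, named here after its values were seen, passed the filter only through the 4 pregnant arrays, and 3 markers lay above the 40th percentile on all 8 arrays. The mean of all 7 NK markers, with no filter, lay between 5.94 and 6.63 in pregnant and between 5.21 and 5.73 in pseudopregnant uterus. limma called 4 of these 6 higher (Ncr1, Gzmb, Prf1 and Il2rb), against 1.41% of kept probe sets, and Gzmb differed by 1.51. Ncr1 lay above the 40th percentile on 4 pregnant and 2 pseudopregnant arrays, so its test is not independent of the filter. With no filter, 0 NK markers were called. With single arrays left out the count lay between 0 and 4, and it was 0 without pregnant replicate 4 and without pseudopregnant replicate 1, 2 or 3. The mean of 9 macrophage markers lay between 7.13 and 7.35 in pregnant and between 6.86 and 6.94 in pseudopregnant uterus. Of the 9, 6 were called higher (Adgre1, C1qb, C1qc, Cd68, Itgam and Mrc1), against 1.41% of kept probe sets. That count was 1 with no filter. It was 1 without pseudopregnant replicate 1, 2 or 3, 2 without pregnant replicate 4 and 3 or 4 without any other single array. The part of these cells in the E2f8 and G1/S differences was not tested. Neutrophil markers were all below the filter, and limma called 0 of 2 kept T and B cell markers, with 0 at an unadjusted p under 0.05. Of the 5 kept markers each of smooth muscle, epithelium, stroma and endothelium, it called 0, with 1, 1, 0 and 2 at an unadjusted p under 0.05, all lower. Over all kept probe sets, 9.43% were lower at that p. The epithelium mean was lowest on pregnant replicate 2, at 7.71, where pregnant replicates 1, 3 and 4 had 7.98 to 8.04 and pseudopregnant arrays 7.94 to 8.37.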

How the data were processed

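Total RNA of 8 uterus samples (Trizol, biotin label, per the labels' protocols) was measured on Affymetrix arrays. The deposited values are intensity per probe set after RMA, per the submitters' processing notes, and the authors deposited them on a linear scale; the sources used here do not give the RMA version, the array's genome build or any batch. log2 of these values was taken. Of 35556 probe sets, 6617 without annotation at the lowest numbers were left out as array controls. The filter on dim signals asked for a value over the array's 40th percentile on 4 or more arrays, and 17491 probe sets passed. Of the 28939 probe sets that are not controls, 21789 had 1 gene symbol in the platform table, 1621 several and 5529 none, and only those with 1 were named. A gene was read from its brightest probe set.

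Groups were compared with limma 3.58.1 (R 4.3.3; lmFit and eBayes, two-sided, Benjamini-Hochberg over all kept probe sets), after tests on simulated data; tables and figures used Python 3.11.15 and matplotlib 3.10.9. The number of arrays and the spread between them limit the precision, and p-values measure only the spread between these samples, which may be technical. The members and lists were chosen with earlier results of these data known. Genes named are all members, the list genes with the smallest p (up to 4 a list, or all in lists of up to 5), called list genes and markers, and the 10 genes most like E2f8. Alternatives were other filters, scalings and offsets, an intensity trend, array weights, the mean of a gene's probe sets, a replicate block and each array left out. Member proteins were not used here.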

Additional observations from a re-analysis of the deposited data

Results flagged for a closer look

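Each member was looked at within each group of 4 for an array far from the others, by the gap to its nearest neighbour over the group's range (Dixon's ratio), and 3 of 16 groups had one. Chance gives about 1 in 20. E2f3 was lowest on pregnant replicate 3, at 6.58, with the nearest pregnant array at 6.95. E2f4 was lowest on pseudopregnant replicate 4, at 7.30, with the nearest at 7.54. E2f5 was highest on pregnant replicate 3, at 6.98, with the nearest at 6.70. E2f8 on pregnant replicate 2 had a ratio of 0.65, which did not stand out by this measure.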

How the results depend on the processing

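The E2f8 difference lay between 0.68 and 1.02 when single arrays were left out and between 0.76 and 0.88 under the other alternatives, and E2f1, E2f3, E2f6 and E2f7 stayed above 0 under all 18. E2f2, E2f4 and E2f5 changed sign under some. Over all probe sets, 319 were called (247 higher and 72 lower). The count was 54 with no filter, 568 with an intensity trend and 40 to 235 with single arrays left out. The lowest count, 40, came without pseudopregnant replicate 1 and also without pseudopregnant replicate 3. Of the 319, 77.4% were higher, against 66.9% with arrays centred on their medians, 67.1% after repeated quantile normalization and 67.5% after cyclic loess. Of the G1/S genes, 4 were called; 0 were with no filter, 8 with an intensity trend and 0 to 14 with single arrays left out. Deviations of same-numbered arrays from their group means correlated at r of 0.24, 0.016, -0.10 and 0.044. The 0.24, for number 1, was the highest over all pairs of arrays from the 2 groups. A pairing by number was thus neither shown nor excluded. With a replicate block 174 probe sets and 2 G1/S genes were called. Of the 4 G1/S genes only Ccne2 stayed called (limma adjusted p = 0.049), while Mcm10 (0.052), Pcna (0.054) and Pola1 (0.079) were lost. All 32 G1/S differences stayed above 0 under the 18 alternatives (29 genes with the stricter filter, which removes any gene below the 40th percentile on 1 array), while G2/M differences were above 0 for 17 of 19 with array weights, 18 of 19 with arrays centred on their medians, 18 of 19 without pseudopregnant replicate 4 and 15 of 19 without pregnant replicate 2. Rbl1 passed only without pregnant replicate 3 (limma adjusted p = 0.041; range over the alternatives 0.041 to 0.17). The causes were not tested. Levels close to the 40th percentile (E2f2, Ccne2) are the least certain.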

Other observations

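With pregnant replicate 2 left out (chosen after seeing the data), the 10 genes most like E2f8 over 7 arrays were Pcna, Cyp51, Sqle, Tmem97, Wdhd1, Klra8, Ms4a7, Fyb, Mcm10 and Chaf1b. Only Tmem97 and Klra8, 2 of 10, were also in the list over 8 arrays. Pcna was first, at 0.091. Pcna, Wdhd1, Mcm10 and Chaf1b act at the replication fork or in chromatin assembly behind it, Cyp51 and Sqle are enzymes of cholesterol synthesis, and Ms4a7 is a macrophage gene.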
